A study of Mus musculus with 3 samples.

Results

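The 33 genes described here encode the enzymes of glycolysis and of the pentose phosphate pathway, the transporters that bring glucose in and let lactate out, and the kinases that set the flow at 2 control points. They were named as a list by function, with earlier results of these data known. They were found on the arrays through the sequence accession of each probe. All 33 were matched, out of 20825 genes named on the arrays, and all 33 were well above background on each of the 3 arrays. They rest on 49 probes, and each gene is represented by its brightest probe.

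RNA levels in fibroblasts grown from mouse tail tips were read on 1-colour oligonucleotide arrays. The cells of every group had received 4 reprogramming factors (c-Myc, Klf4, Oct4 and Sox2). RNA was taken on day 8, when such cultures hold intermediates between fibroblasts and pluripotent cells. The young WT array holds cells of wild-type mice aged 2 months, the old WT array cells of wild-type mice aged 22 months, and the old p16-/- array cells of mice aged 22 months without p16, an inhibitor of the cell cycle encoded by Cdkn2a. There was 1 array per group. No cells without the factors were analysed here. The design text speaks of 2 independent experiments with different donors, but the number of mice behind an array, their sex and strain, and the way the factors were delivered are not given in the sources used here. With 1 array per group no difference has a replicate check and no p-value is given. Differences are described by their size: those of at least 1.5-fold have a log2 ratio of 0.58 or more, and those of at least 2-fold 1 or more, in either direction.

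Glycolysis splits glucose into pyruvate in the cytosol, and lactate dehydrogenase turns pyruvate into lactate, which monocarboxylate transporters carry out of the cell. The pentose phosphate pathway branches off after the hexokinase step and supplies NADPH and ribose for nucleotides. Pluripotent cells are known for high glycolysis, and fibroblasts shift towards it as they are reprogrammed. Most steps can be carried out by several isoforms from separate genes, which differ in the tissues that use them and in how they are controlled.

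Each array held 43020 spots outside the controls, of which 57.4% (young WT), 61.6% (old WT) and 58.4% (old p16-/-) passed the background limit. The 75th percentile of the processed signal, by which each array was scaled, was 2138, 2051 and 2058. Cdkn2a had signals of 62705, 65464 and 28065, a log2 ratio of -1.23 for old p16-/- over old WT. Cdkn2a also encodes the tumour suppressor Arf, and the place of its probes relative to the deletion is unknown, so this signal does not check the genotype. The Y-linked gene Eif2s3y had a signal of 6819 on young WT and did not rise clearly above background on old WT or old p16-/-. Xist, made from the inactive X, lay near background on young WT, with signals of 1548 and 1387 on the old arrays, so donor age cannot be told apart from this difference in sex-linked genes. For the 4 X-linked members (G6pdx, Pgk1, Pdk3 and Pfkfb1) the old WT over young WT log2 ratios lay between -0.10 and 0.03. All 13 fibroblast markers were above background on each array, with summed signals of 1539980, 1608330 and 1475520. Single markers moved both ways between old p16-/- and old WT. At 1.5-fold, 3 were lower, Thy1 (-3.99), Pdgfrb (-0.96) and Fbn1 (-0.67), and 2 were higher, Pdgfra (1.60) and Dcn (0.59). These are 23.1% and 15.4% of the 13 markers, against 12.7% lower and 11.5% higher of all genes.

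Old WT and young WT cells differed little in these genes. None of the 33 was 2-fold apart, against 2.92% of 14550 genes that were at least 2-fold higher on old WT and 3.17% that were at least 2-fold lower. Ldhb was the 1 member at least 1.5-fold higher and Slc2a3 the 1 member at least 1.5-fold lower, each 3.03% of the members, against 6.67% and 5.02% of all genes. The median log2 ratio was 0.02 for the members and -0.00 for all genes, and 28 of the 33 lay within the error of the ratio that the scanner software's own error per spot gives (0.20 to 0.27). That error covers the measurement of a spot and not the spread between cultures. Within 0.2 log2 units of 0 lay 28 of the 33 members and 9447 of the 14550 genes.

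Old p16-/- and old WT cells differed in more members, mostly upwards. Differences were also more common across the whole array in this comparison. Beyond the 1.5-fold limit, the upward share of all genes was 11.5% here and 6.67% between the WT arrays. The downward shares were 12.7% and 5.02%. Whether the members differed from the whole array in this respect was not tested. Eno2, Slc16a1 and Aldoc were at least 2-fold higher on old p16-/-, which is 9.09% of the members, against 5.89% of 14695 genes. None was at least 2-fold lower, against 6.61% of all genes. At 1.5-fold, Pfkp, Slc16a3 and Ldhb joined them (6 members, 18.2%, against 11.5%), and Pdk3 was lower (1 member, 3.03%, against 12.7%). The median was 0.10 for the members and 0.02 for all genes. It was 0.01 after quantile normalization and -0.0049 after cyclic loess, so the members as a whole had no direction that held across scalings. Aldoc was just inside the 2-fold limit at 1.06 and Pfkp the nearest outside it, at 0.84. Erythroid markers also differed between these arrays. Of the 5 reported here, 1, 3 and 3 were above background on young WT, old WT and old p16-/-, with summed signals of 270, 703 and 11227. Nearly all of the last sum came from the near-identical globin genes Hba-a1 (24.8, 48.8 and 2241) and Hba-a2 (201, 257 and 8594), whose probes may share RNA, while Hbb-bt and Hbb-bs were not above background on any of the arrays. Their part in the members' differences was not tested.

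**Figure D1:**
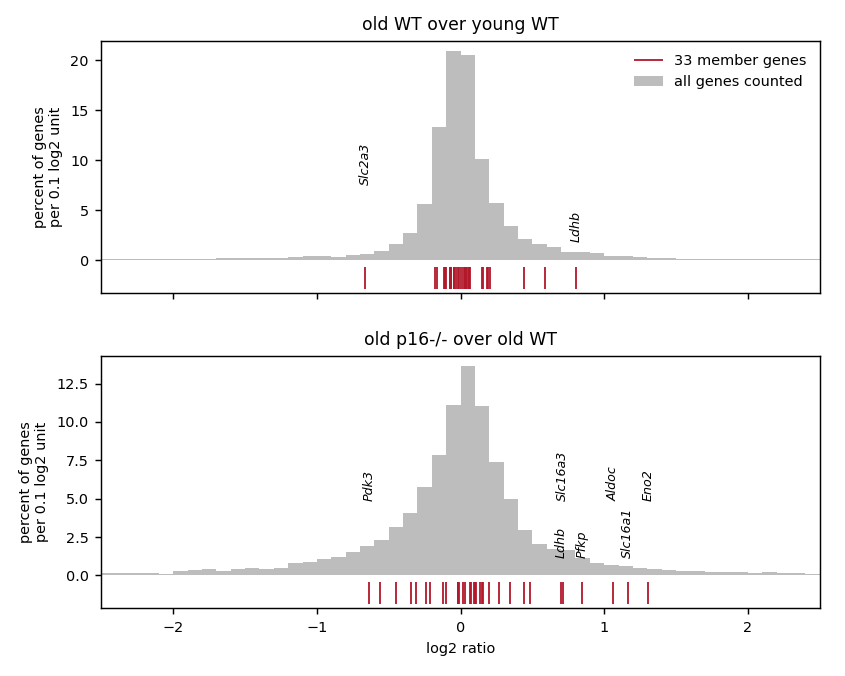
Log2 ratios of the 33 genes (red ticks) under the distribution of all genes counted (grey bars, percent of genes per bin), for old WT over young WT above and old p16-/- over old WT below. Members at least 1.5-fold apart are named, 2 above and 7 below, and ratios beyond 2.5 log2 units of other genes lie outside the axis.

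Old p16-/- over young WT shares an array with each of the other comparisons and adds no independent measurement. In it Ldhb, Eno2 and Slc16a1 were at least 2-fold higher (9.09% of the members, against 6.34% of 14283 genes) and no member was at least 2-fold lower (against 6.96%). At 1.5-fold, 7 members were higher (21.2%, against 11.3%) and 2 lower (6.06%, against 12.2%), and the median was 0.10 against 0.03 for all genes. The array with the highest level was old p16-/- for 20 of the 33 genes, old WT for 7 and young WT for 6. Of the 12887 genes above background on all 3 arrays, 45.0% were highest on old p16-/-. The members' count depended on the scaling: it was 15 after quantile normalization (42.0% of all genes) and 15 after cyclic loess (39.7%). For 21 members the highest and lowest of the 3 arrays lay within 0.5 log2 units, which was not counted for all genes.

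**Figure D2:**
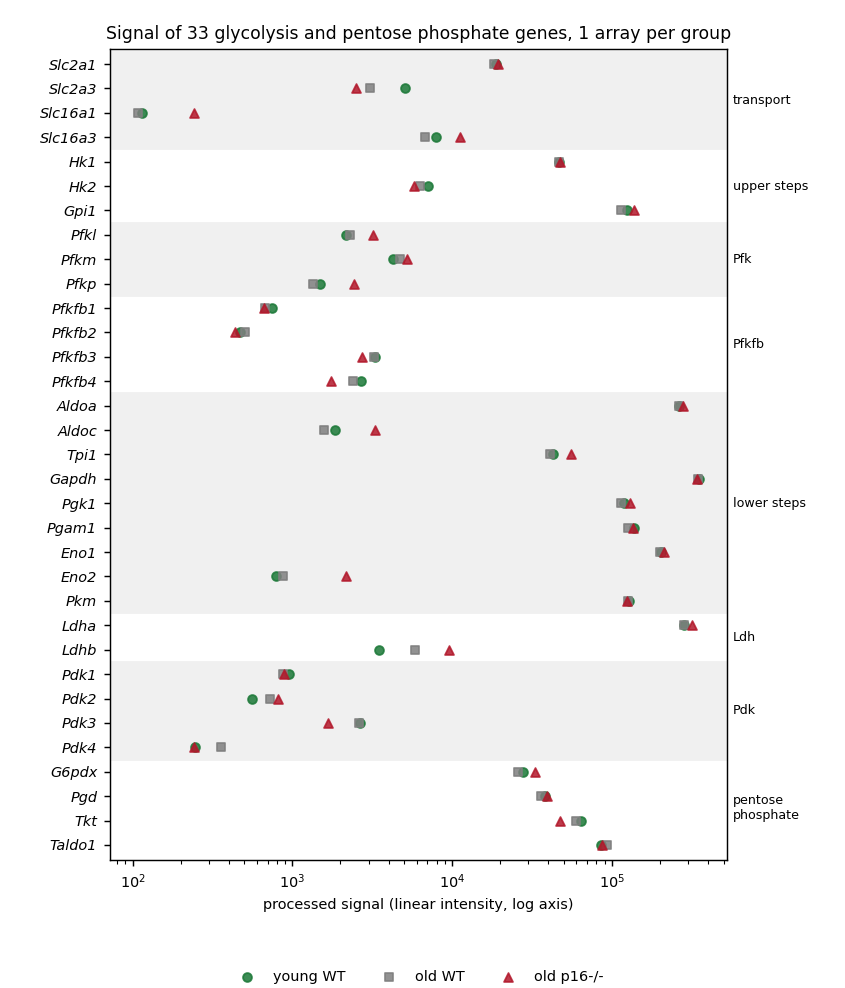
Processed signal (linear intensity on a log axis) of each of the 33 genes, grouped by role, with 1 point per array: young WT, old WT and old p16-/-. For most genes the 3 points lie on top of each other, and Eno2, Slc16a1, Aldoc, Ldhb and Slc2a3 are among those that spread; signals of different genes come from different probes and cannot be set against each other.

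The promoters of the 6 members at least 1.5-fold higher on old p16-/- than on old WT are shown because many glycolytic genes are known targets of the hypoxia-inducible factors and of Myc, whose binding letters are short. The core of a hypoxia response element is ACGTG or GCGTG, and the E-box bound by Myc and by the glucose-responsive Mlx partners is CACGTG, which holds ACGTG on both strands. The 250 bases before the start of transcription were read from RefSeq promoters of GRCm38.p6 on the gene's strand, 5′ to 3′, and searched on both strands; capitals mark every ACGTG or GCGTG and its reverse complement. These 6 are Eno2 (chr6:124769674-124769923, minus strand), Slc16a1 (chr3:104638414-104638663, plus strand), Aldoc (chr11:78322823-78323072, plus strand, the upstream one of its 2 windows), Pfkp (chr13:6648772-6649021, minus strand), Slc16a3 (chr11:120948817-120949066, plus strand) and Ldhb (chr6:142507958-142508207, minus strand), in order of falling ratio. Ldha (chr7:46845554-46845803, plus strand), for the other lactate dehydrogenase subunit, is shown beside Ldhb as a member that was not, by the upstream one of its 2 windows.
Eno2: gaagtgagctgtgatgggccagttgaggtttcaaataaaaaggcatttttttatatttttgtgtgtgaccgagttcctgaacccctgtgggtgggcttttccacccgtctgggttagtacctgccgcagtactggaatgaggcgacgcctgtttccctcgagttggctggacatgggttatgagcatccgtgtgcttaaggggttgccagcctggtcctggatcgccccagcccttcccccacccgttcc
Slc16a1: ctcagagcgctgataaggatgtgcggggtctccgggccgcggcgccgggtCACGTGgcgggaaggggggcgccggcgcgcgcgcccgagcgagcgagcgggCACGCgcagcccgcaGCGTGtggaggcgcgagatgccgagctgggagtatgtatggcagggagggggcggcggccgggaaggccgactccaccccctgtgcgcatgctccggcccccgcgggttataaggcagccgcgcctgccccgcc
Aldoc: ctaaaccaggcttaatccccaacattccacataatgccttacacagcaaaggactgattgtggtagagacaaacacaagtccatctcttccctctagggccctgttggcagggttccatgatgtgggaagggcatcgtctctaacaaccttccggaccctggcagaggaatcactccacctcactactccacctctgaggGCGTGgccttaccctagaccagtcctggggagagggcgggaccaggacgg
Pfkp: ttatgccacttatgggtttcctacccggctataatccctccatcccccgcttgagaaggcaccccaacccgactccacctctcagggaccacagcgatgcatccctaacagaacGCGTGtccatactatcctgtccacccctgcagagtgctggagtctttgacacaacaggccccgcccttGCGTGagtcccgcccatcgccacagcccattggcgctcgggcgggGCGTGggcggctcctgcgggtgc
Slc16a3: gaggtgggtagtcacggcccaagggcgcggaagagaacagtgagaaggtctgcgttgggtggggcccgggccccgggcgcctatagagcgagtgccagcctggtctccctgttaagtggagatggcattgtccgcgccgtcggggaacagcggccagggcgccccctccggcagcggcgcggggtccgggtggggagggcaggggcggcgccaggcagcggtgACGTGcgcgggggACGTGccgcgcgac
Ldhb: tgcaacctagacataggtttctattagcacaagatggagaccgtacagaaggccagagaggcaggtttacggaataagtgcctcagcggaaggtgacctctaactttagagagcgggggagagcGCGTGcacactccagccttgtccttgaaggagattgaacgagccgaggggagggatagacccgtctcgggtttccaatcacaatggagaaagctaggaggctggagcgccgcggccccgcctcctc
Ldha: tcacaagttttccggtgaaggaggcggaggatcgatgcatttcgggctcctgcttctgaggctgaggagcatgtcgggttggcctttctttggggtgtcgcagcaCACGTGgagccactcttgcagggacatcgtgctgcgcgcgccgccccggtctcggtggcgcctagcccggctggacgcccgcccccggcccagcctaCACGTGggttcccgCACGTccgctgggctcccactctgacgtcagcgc

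The window of Eno2 held none of these letters and those of Aldoc and Ldhb 1 GCGTG each. Pfkp held 3 GCGTG, Slc16a3 held 2 ACGTG, and Slc16a1 held 2 ACGTG and 2 GCGTG, with 1 CACGTG among them. Ldha held 5 ACGTG, with 2 CACGTG among them. Promoters were found for 32 of the 33 genes; Slc2a3 had none. ACGTG or GCGTG stood in 39 of their 52 windows (75%) and in 38.6% of all 32851 windows of this length, and CACGTG in 6 (11.5%) and 6.02%. The windows of all genes were not matched to those of the members for base composition, and some windows of the same gene overlap. Whether the members hold more of these letters than like promoters was therefore not tested. A match is a run of letters in this window and not a measured site.

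Transport into and out of the cell held members that went opposite ways. Slc2a1, the glucose transporter Glut1 of most cultured cells, had signals of 18874, 18343 and 19367, in the order young WT, old WT and then old p16-/- kept for all genes below, with log2 ratios of 0.02 between the WT arrays and 0.07 between the old arrays. Wherever a pair of ratios follows a gene's signals below, it is given in that order, old WT over young WT and then old p16-/- over old WT. Its 3 values lay within measurement error of each other.

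Slc2a3, the high-affinity transporter Glut3 of neurons and blood cells, had signals of 5075, 3075 and 2494. It was highest on young WT and lowest on old p16-/-. The log2 ratio was -0.66 (1.58-fold lower) for old WT over young WT, -0.31 for old p16-/- over old WT and -0.97 for old p16-/- over young WT. Many macrophage markers moved with it. Of 14 listed, 13 were on the arrays, and 12, 12 and 6 were above background on young WT, old WT and old p16-/-, with summed signals of 45073, 26877 and 18120. Adgre1 had signals of 1153 and 155 on the WT arrays, and Adgre1, Lyz2, C1qa, C1qb, C1qc, Tyrobp and Ctss were not well above background on old p16-/-. Others differed less or the other way. Itgam, which makes up most of the sum, had 19992, 19071 and 14934, and Cd14 had 1403, 1438 and 971, both level between the WT arrays. Laptm5 was lower on old WT (-1.19) but at 0.55 between the old arrays, and Ptprc passed the background limit on old p16-/- alone. Their part in the Slc2a3 difference was not tested. In RNA of a whole culture, fewer cells of a type and less RNA per cell cannot be told apart.

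Slc16a1 encodes Mct1, which moves lactate and pyruvate both ways across the membrane. It had signals of 115, 108 and 242. Both WT arrays were alike and the p16-/- array was higher, by a log2 ratio of 1.16 (2.24-fold, software error 0.24) over old WT. These signals are dim, and with normexp background correction the ratio was 0.74, under 2-fold.

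Slc16a3 encodes Mct4, the lactate exporter of highly glycolytic cells, and was bright. Its signals were 7936, 6804 and 11186. Again the WT arrays lay close together (-0.16) and old p16-/- was higher, by 0.71 (1.64-fold) over old WT and 0.55 over young WT. The other probe of the gene gave 0.70 and 0.60. Slc16a1 and Slc16a3 lay on the same side in both comparisons with old p16-/-.

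The entry steps differed little. Hk1, the hexokinase of most tissues, had signals of 46666, 46884 and 47481. Hk2, the inducible hexokinase of muscle and of growing cells, had 7092, 6280 and 5780, with log2 ratios of -0.12 and -0.12. Gpi1, the isomerase that follows, had 125055, 114067 and 137574, with ratios of -0.07 and 0.27. Hk1 and Hk2 lay within the software error of a ratio in both comparisons, and the 3 probes of Gpi1 gave 0.21 to 0.27 for old p16-/- over old WT.

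Phosphofructokinase, the main control point of glycolysis, is built from subunits of the liver (Pfkl), muscle (Pfkm) and platelet (Pfkp) genes. All 3 were higher on old p16-/- than on old WT, by unequal amounts, and kept that side under each of the 10 alternative settings. Pfkp had signals of 1486, 1354 and 2436, flat between the WT arrays (-0.07) and higher by 0.84 (1.79-fold) on old p16-/-. Its other probe, at signals of 148, 119 and 172, gave 0.53, under 1.5-fold. Pfkl had 2154, 2290 and 3210, with a ratio of 0.48 over old WT and 0.63 (1.55-fold) over young WT. Pfkm had 4262, 4717 and 5194 and lay within the software error at 0.13 over old WT.

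The Pfkfb genes encode enzymes that make and break fructose 2,6-bisphosphate, the activator of phosphofructokinase. All 4 were lower on old p16-/- than on old WT as scaled here, the side opposite to the phosphofructokinase subunits, but none by 1.5-fold. Pfkfb4 stood furthest, with signals of 2671, 2380 and 1745 and ratios of -0.11 between the WT arrays and -0.45 for old p16-/- over old WT; averaged with its other probe, which was not above background, it was at -0.04. Pfkfb3, the isoform with the strongest kinase side, had 3305, 3242 and 2747 (-0.24). Pfkfb2 had 472, 505 and 438 (-0.21) and Pfkfb1 had 750, 671 and 663 (-0.02). The ratios of Pfkfb1 and Pfkfb2 were about as large as the software error or smaller.

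**Figure D3:**
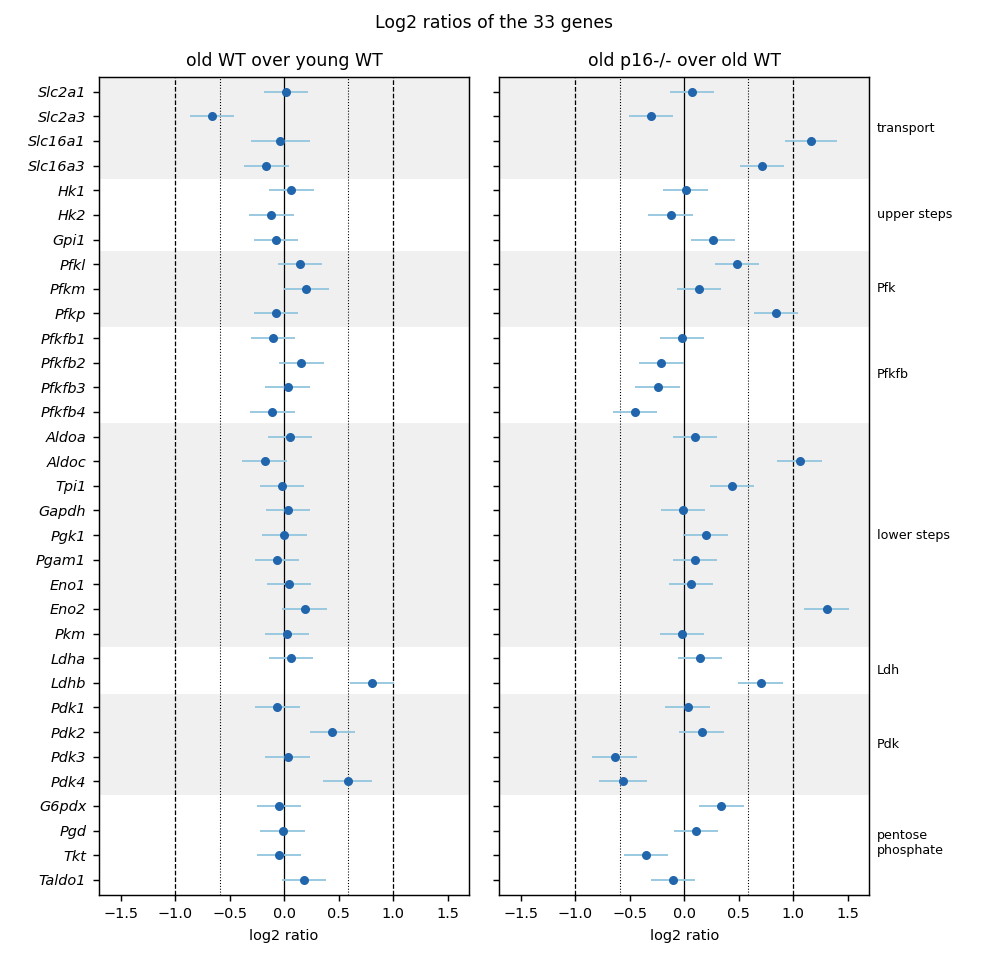
Log2 ratio of each of the 33 genes, grouped by role, for old WT over young WT (left) and old p16-/- over old WT (right), 1 array per group. Horizontal bars show the software's measurement error of the ratio, dotted lines 1.5-fold and dashed lines 2-fold; the left panel is narrow around 0 apart from Ldhb and Slc2a3, and the right panel is wider, with Eno2 at 1.31 and Pdk3 at -0.64.

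In the lower part of glycolysis the common isoforms were nearly level across the 3 arrays, while the isoforms known from brain were higher on old p16-/-. Aldoa, the muscle-type aldolase, had signals of 262171, 261522 and 280707, with ratios of 0.06 and 0.10. Aldoc, the brain-type aldolase, had 1859, 1577 and 3297. It was highest on old p16-/-, at 1.06 (2.09-fold) over old WT and 0.88 (1.84-fold) over young WT, and was at -0.18 between the WT arrays.

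Enolase showed the same split. Eno1, the enolase of most cells, had signals of 203192, 201485 and 211298 (0.05 and 0.06). Eno2, the neuronal enolase, had 795, 870 and 2162. The WT arrays were close (0.19), and old p16-/- was higher by 1.31 (2.48-fold, software error 0.20) over old WT, with 1.27 to 1.31 under the alternative settings. Eno2 and Aldoc were also set against their common isoforms on the same arrays, which removes a factor shared by all probes of an array. Scaling that depends on signal is not removed. Between old p16-/- and old WT, Eno2 over Eno1 differed by 1.24 ± 0.29 (software error, 1 array per group) and Aldoc over Aldoa by 0.96 ± 0.29.

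Some markers of glia and neurons moved with these brain-type isoforms. The 6 reported here were above background on every array, with summed signals of 51531, 48804 and 65485. Most of each sum came from Stmn2 (25724, 24062 and 38952), Snap25 (14776, 14328 and 10951) and Tubb3 (9558, 7483 and 6657). S100b had signals of 340, 750 and 3241, Ngfr had 1027, 1983 and 5357, and Sox10 had 106, 199 and 326. These 3 were higher on old WT than on young WT as well, by 0.96 to 1.20, where Eno2 was at 0.19 and Aldoc at -0.18. The neuronal genes Tubb3 and Snap25 were at -0.17 and -0.39 for old p16-/- over old WT and Stmn2 at 0.69. Their part in the Eno2 and Aldoc differences was not tested.

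The remaining steps down to pyruvate lay within 1.5-fold in each comparison. Tpi1, the triose phosphate isomerase, had signals of 43072, 40833 and 55511, a ratio of 0.44 for old p16-/- over old WT, and 0.50 from its other probe. Pgk1, the kinase of the first step that yields ATP, had 118259, 113698 and 130756 (0.20). Pgam1, the mutase that follows, had 138236, 126792 and 136043 (0.10). Of these, Tpi1 lay beyond the software error and Pgk1 and Pgam1 within it. Pkm, which makes pyruvate, had 128818, 126130 and 124750, with ratios of 0.03 and -0.02; its array values do not separate the 2 splice forms.

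Gapdh, widely used as a reference gene, had signals of 349286, 344116 and 342503 by its brightest probe and ratios of 0.04 and -0.01. It has 7 probes, all above background, which for old WT over young WT gave -0.03 to 0.04. For old p16-/- over old WT the 4 brightest gave -0.02 to -0.01 and the others -0.14, -0.20 and -0.28, in order of falling signal. The probes of 1 gene thus differed by 0.27 in that comparison and by 0.06 between the WT arrays.

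**Figure D4:**
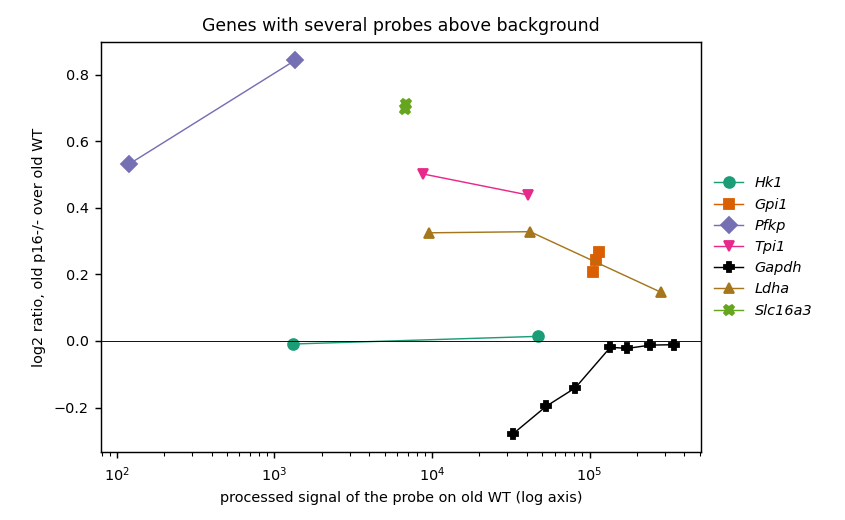
Log2 ratio of old p16-/- over old WT for every probe of the 7 genes with several probes above background, against the probe's processed signal on old WT (log axis). Lines join probes of a gene; the probes of Slc16a3 nearly coincide, at 0.70 and 0.71, while those of Gapdh run from -0.28 to -0.01 and those of Pfkp from 0.53 to 0.84.

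Lactate dehydrogenase held the member with the widest range over the 3 arrays. Ldha, the subunit that favours making lactate, had signals of 283331, 283807 and 315100, with ratios of 0.06 and 0.15; its other probes gave 0.33 and 0.32 for old p16-/- over old WT. Ldhb, the heart-type subunit that favours using lactate, had 3474, 5827 and 9499. It was lowest on young WT and highest on old p16-/-, and it was the 1 member at least 1.5-fold higher both on old WT over young WT and on old p16-/- over old WT. The ratios were 0.81 (1.75-fold) and 0.70 (1.63-fold), and 1.51 (2.84-fold) for old p16-/- over young WT, each with a software error of 0.20. Relative to Ldha the differences were 0.74, 0.55 and 1.30. Over the alternative settings the ratios ran from 0.75 to 0.83 and from 0.65 to 0.70.

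**Figure D5:**
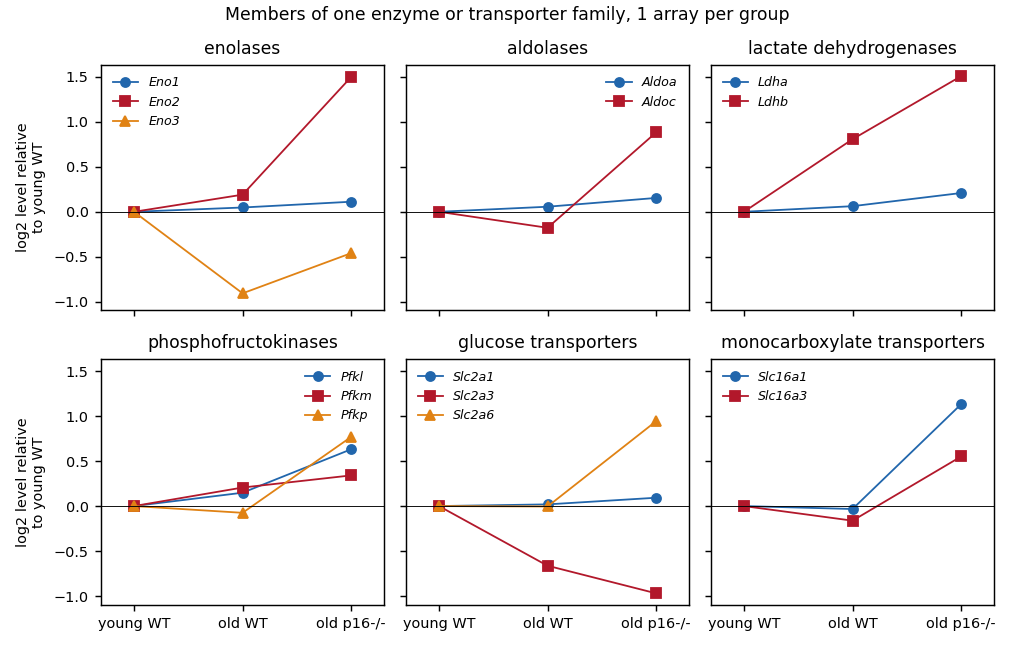
Log2 level relative to young WT for members of 6 enzyme or transporter families on the 3 arrays, 1 array per group and no error bars. Eno2, Aldoc and Ldhb leave Eno1, Aldoa and Ldha, which stay near 0, and Slc2a3 lies below Slc2a1; Eno3 and Slc2a6 are related genes outside the 33.

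The pyruvate dehydrogenase kinases, which hold pyruvate back from the mitochondrial citric acid cycle, each had a pattern of their own. Pdk1, a target of the hypoxia-inducible factors, was level, with signals of 948, 871 and 892. Pdk3 had 2651, 2603 and 1678, level between the WT arrays (0.03) and lower on old p16-/- by a ratio of -0.64 (1.56-fold lower) against old WT. Pdk2 had 557, 727 and 815, with ratios of 0.44 and 0.16, and 0.60 (1.52-fold) for old p16-/- over young WT.

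Pdk4, which fasting and fatty acids are known to raise, had signals of 247, 355 and 241. It was highest on old WT, at 0.58 over young WT, just short of 1.5-fold, and -0.56 for old p16-/- over old WT, which brought the 2 outer arrays level (0.02). Of the 4 kinases, Pdk2 and Pdk4 lay beyond the software error in the comparison of old with young WT, and Pdk3 and Pdk4 in that of old p16-/- with old WT.

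The pentose phosphate genes stayed within 1.5-fold in all 3 comparisons. G6pdx, the dehydrogenase that commits glucose to the pathway and makes NADPH, had signals of 27930, 25904 and 32928 (-0.05 and 0.34). Pgd, which makes the next NADPH, had 37967, 36108 and 39063 (-0.01 and 0.11). The oxidative enzyme G6pdx was thus beyond the software error for old p16-/- over old WT and Pgd within it.

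In the non-oxidative branch, Tkt, the transketolase, had 64451, 59908 and 47208, a ratio of -0.35 for old p16-/- over old WT. It lay on the other side of 0 from G6pdx, and both kept their side under the 10 alternative settings. Taldo1, the transaldolase, had 85065, 92574 and 86611 (0.18 and -0.10), within the software error.

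Related genes outside the 33 were read from lists of their own. Of 26 other enzymes of these pathways, 20 were counted for old p16-/- over old WT, with a median of 0.18. Of these 20, 1 was at least 2-fold higher and 0 lower, against 5.89% and 6.61% of all genes. The 1 higher, Tktl1, was above background on old p16-/- alone, so its ratio is a bound. For old WT over young WT 20 were counted, with a median of 0.03. In that comparison 1 was at least 2-fold higher and 1 lower, against 2.92% and 3.17% of all genes. The 1 lower, Hk3, was above background on young WT alone, so its ratio is a bound. The following were chosen after their values were seen. Pgam2, the muscle mutase, had signals of 241, 652 and 952 and was 2.82-fold higher on old WT than on young WT and at 0.54 between the old arrays. Eno3, the muscle enolase, had 26618, 13631 and 18633, at -0.91 and 0.45. Of 8 skeletal muscle markers, 2, 3 and 2 were above background, with summed signals of 8143, 7318 and 1817. Most of each sum came from Acta1 (7932, 7105 and 1569), while Myh3 had 109, 116 and 145. The part of these markers in either difference was not tested.

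Among 12 other transporters of sugars and pyruvate, 9 were counted in each comparison, with medians of 0.04 and 0.00. The chaperone Bsg, which brings the monocarboxylate transporters to the membrane, had signals of 12518, 14395 and 12560 (0.26 and -0.20). Slc2a4, the insulin-responsive transporter, did not pass the background limit on any of the arrays. Slc2a6, named after its values were seen, had 4570, 4371 and 8455, at 0.95 for old p16-/- over old WT.

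A list of 9 genes held subunits of the pyruvate dehydrogenase complex, the enzyme that the Pdk kinases switch off, genes of its phosphatases, and pyruvate carboxylase. None of the 9 was 2-fold apart between old p16-/- and old WT, against 5.89% higher and 6.61% lower of all genes. Their median was -0.08. Pdha1, the subunit that carries the phosphorylation sites, had signals of 9276, 8425 and 8799 (-0.08 and 0.06). Pdhb, its partner, was named after its values were seen: it had 30005, 27735 and 14670, level between the WT arrays and at -0.92 for old p16-/- over old WT.

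The regulators known to act on these genes lay on both sides of 0 for old p16-/- over old WT. Hif1a, the oxygen-regulated factor whose control lies mainly in protein stability, had signals of 5202, 5281 and 3808, with ratios of 0.08 and -0.48. Myc, one of the introduced factors, had 2456, 2387 and 1172, at 0.02 and -1.03; the sources used here do not say whether its probe detects the introduced copy. Egln3, a prolyl hydroxylase that is itself a hypoxia target, had 545, 812 and 1735, at 0.64 and 1.09. Txnip, a glucose-induced brake on glucose uptake, had 3742, 3027 and 2550, at -0.25 and -0.25. Of the 19 listed regulators, 18 were counted for old p16-/- over old WT, with a median of 0.03. The 2-fold limit was passed upwards by 3 of them (16.7%), Egln3, Prkaa2 and Hif3a. For all genes that share was 5.89%. Downwards it was passed by Myc alone, and by 6.61% of all genes. Hif3a was above background on old p16-/- alone, at a signal of 74.5, so its ratio is a bound. Prkaa2, named after its values were seen, was dim, with signals of 194, 237 and 534.

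Of 22 hypoxia targets that are not among the 33, the median was 0.15 for old p16-/- over old WT. In that comparison 1 was at least 2-fold higher and 1 lower, against 5.89% and 6.61% of all genes. Between old and young WT their median was 0.09 and none was 2-fold apart, against 2.92% higher and 3.17% lower of all genes. Stc2, a secreted stress-response glycoprotein, had signals of 3203, 3017 and 7940 (1.39 for old p16-/- over old WT). Adm, the vessel-widening peptide adrenomedullin, had 3992, 6222 and 2869 (-1.12). Plod2, a collagen-modifying enzyme, had 2446, 3983 and 5050, at 0.76 between the WT arrays and 1.10 between old p16-/- and young WT. For 10 targets of Nrf2, the oxidative stress factor that also acts on pentose phosphate genes, the median was 0.24 between the WT arrays. Between the old arrays it was -0.26, and 1 was at least 2-fold lower, against 6.61% of all genes.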

How the data were processed

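The authors deposited 1 scanner file per array holding linear intensities of Cy3 spots, extracted by version 11.5.1.1 of Agilent's Feature Extraction software per the file headers. The processed intensity used here is background-subtracted and not normalized between arrays, per the file headers. Their deposited value table held the same intensities, which for all 39030 probes spotted once matched to a relative tolerance of 0.0001, and its column medians were 137, 135 and 132. The 3 arrays shared 1 slide and 1 scan.

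Control spots (1377) and spots marked as non-uniform or outliers (246, 246 and 267) were left out; none was saturated. From the deposited intensities, log2 values were averaged per probe and the 75th percentile of the array was subtracted. Accessions named 27508 of 39429 probes through a RefSeq gene table of GRCm38.p6; the probes were designed on mm9, so coordinates are given only for RefSeq promoters. The brightest probe stood for a gene. A gene was counted in a comparison if well above background on at least 1 of its 2 arrays, and where only 1 was, its ratio is a bound. Of 399 probes spotted 10 times, 252, 263 and 249 had all kept spots above background. Over these, the log2 SD of replicate spots had medians of 0.0542, 0.0563 and 0.0534, which leaves out dim probes. No test was possible with 1 array per group, and precision is limited by the number of arrays.

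The members and lists were chosen with earlier results of these data known. The text names all members. Of the lists other than cell type markers it names at most 4 genes per list and direction that were at least 2-fold apart with a signal of at least 1000. Hif1a, Myc, Txnip, Bsg, Slc2a4 and Pdha1 are named in any case, and Tktl1, Hk3 and Hif3a because their ratios are bounds. Other genes are marked where named. The cell type markers do not follow this rule and were chosen after their values were seen. Alternatives were normexp background correction (offset 50, on the median spot signal, in place of a mean signal column not used here), other scalings, filters on dim probes, marked spots kept, the mean over probes, and the deposited table without scaling. The steps were tested on simulated data. R 4.3.3 with limma 3.58.1 and Python 3.11.15 were used. The other cell type lists (endothelial, keratinocyte, adipocyte and pluripotency genes) had 3, 3, 2 and 6 genes above background on young WT, 3, 4, 2 and 6 on old WT, and 3, 4, 3 and 7 on old p16-/-. Their summed signals in that order were 6539, 10555, 2996 and 2200 on young WT, 6523, 8913, 3862 and 2391 on old WT, and 6546, 9668, 3494 and 2121 on old p16-/-. Some cell type markers are not reported here.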

Additional observations from a re-analysis of the deposited data

How the results depend on the processing

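The counts of members at 1.5-fold and 2-fold and the medians gave 150 values over 10 alternative settings. Of these, 144 stayed the same, meaning medians within the spread of replicate spots and counts within 1.5 times, such as 3 and 2 or 7 and 5. All 33 members were above background on each array, so settings that only changed the background limit could not alter their values. The same holds for the ratios of single members below. With the 75th percentile taken over probes above background on all 3 arrays, members at least 1.5-fold higher on old WT over young WT numbered 2 and those at least 1.5-fold lower on old p16-/- over old WT 2, as Pdk4 passed the limit in both. With the deposited table unscaled, the members' median for old WT over young WT was -0.041 and 1 member, Slc2a3, was at least 2-fold lower on old p16-/- over young WT. In that setting 5 members were at least 1.5-fold higher and 3 lower on old p16-/- over young WT, against 7 and 2 as reported. The median for old p16-/- over old WT was 0.012 after quantile normalization and -0.0049 after cyclic loess. The cause was not tested. With normexp, 2 members in place of 3 were at least 2-fold higher on old p16-/- over old WT, since dim Slc16a1 was at 0.74. Of 18 ratios of single members at least 1.5-fold, 173 of 180 alternative values stayed so and 0 turned direction. The others were Pfkp, Pfkl and Pdk2 over young WT and the dimmer Pfkp probe over old WT. No paired analysis was possible because each group has 1 array, and no array could be left out. Slc16a1 and Pdk4, above background on all 3 arrays but low in signal, had software errors of 0.24 and 0.22 in the log2 ratio of old p16-/- over old WT, against 0.20 for the lowest.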

Other observations

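Some related genes with dim signals are given as values, chosen after they were seen. Slc16a7, for the monocarboxylate transporter Mct2, had signals of 80, 73 and 262, a log2 ratio of 1.84 for old p16-/- over old WT, which places it on the same side as Slc16a1 and Slc16a3. Prkaa2, a catalytic subunit of the energy sensor AMPK, had 194, 237 and 534 (1.16). Gpd1, which links glycolysis to glycerol lipids, had 150, 191 and 355 (0.89). Hk3, a hexokinase of blood cells, had a signal of 98.4 on young WT and lay near background on old WT and old p16-/-, and Slc2a5, the fructose transporter, had 142, 45.7 and 46.3; the macrophage markers given above differ between the same arrays, and their part was not tested.

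Some brighter genes were likewise chosen after their values were seen. Pgm1, which joins glycogen to glycolysis, had signals of 27484, 27599 and 17846 (-0.63 for old p16-/- over old WT). Prps1, which uses ribose 5-phosphate for nucleotides, had 14418, 12664 and 19666 (0.63). Pdk3, Pdhb and Pgm1 were level between the WT arrays, at 0.03, -0.05 and 0.07, and lower on old p16-/-.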
